A study of Homo sapiens with 8 samples.

Results

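The gene expression response to JQ1 and rapamycin together was compared with what the responses to each drug alone would give, in MNNG/HOS, a human osteosarcoma line made by transforming HOS cells with a chemical carcinogen. All 8 arrays of the series entered, 2 per group. The 4 groups are the solvent DMSO as control, JQ1 (labelled 7.5 mM), rapamycin (labelled 12.5 nM) and both drugs together. The labels' unit for JQ1 could not be checked, and the length of treatment was not given in the sources used here. All groups are 1 cell line, and the labels do not say if same-group arrays are separate cultures, so p-values cover the spread between arrays alone, which may be technical. For each gene the difference between both drugs and rapamycin was set against the difference between JQ1 and DMSO, on the log2 scale of probe intensity, within each replicate number and on average. This difference of differences is called the interaction. It was computed for the 12759 genes that had a named probe above the intensity floor of 20 on at least 2 arrays, out of 47304 probes on the array.

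JQ1 displaces the BET bromodomain proteins from acetylated histones and so lowers transcription at many strong enhancers. Rapamycin, bound to FKBP1A, inhibits mTORC1, the kinase complex that ties amino acid and growth factor supply to translation, ribosome production and amino acid synthesis. The unfolded protein response, also called UPR, and the ATF4 pathway are transcriptional programmes that cells start under stress in the endoplasmic reticulum (ER) or when amino acids run short. When the effects of 2 drugs multiply, they add on the log2 scale and the interaction is 0. A negative interaction means that the level with both drugs lay below the product of the single effects, and a positive one that it lay above. A gene that both drugs shift the same way, and that goes no further with the pair, has an interaction of the opposite sign to those shifts.

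A limit on the group names comes before any value. The series holds a second table of non-normalized signals whose header names 6 of the 8 arrays differently from the value table used here, in which each column belongs to a sample record. Matched by rank correlation (at least 0.997 for the best match against at most 0.9795 for any other pair, over 14640 probes), the 4 arrays that the header names for JQ1, alone or with rapamycin, were the 4 named for rapamycin here. Its 4 rapamycin arrays were the replicate 2 arrays here, and its replicate 2 arrays were the 4 named for JQ1 here. Should the header be right, the interaction would compare other groups, and its values under those names are given in the closing section. H2BC5, a histone gene known to go up after BET inhibition, stood at 269.8 and 392.2 with DMSO, 2432.2 and 4474.8 with JQ1, 271.9 and 756.8 with rapamycin, and 5098.2 and 4429.2 with both drugs. Its 4 high arrays are those named for JQ1 here, and they carry the name replicate 2 in the header. The arrays had mean intensities of 455.5 to 481.6, with 55.7% to 58.6% of probes at the floor. Of the mesenchymal markers, 5 of 9 were among the tested genes, with VIM, the intermediate filament vimentin, at 28108 to 33757. Arrays read the RNA of the whole culture, so fewer responding cells and less RNA per cell cannot be told apart. Of the haematopoietic markers 2 of 6 were tested, CD14 and LYZ, and their sum ran from 313.3 to 506.2 with DMSO, 205.9 to 337.9 with JQ1, 97.2 to 199.4 with rapamycin and 78.8 to 167.0 with both drugs; its part in any result was not tested. Of the epithelial markers 3 of 5 were tested (EPCAM, KRT8 and KRT18), summing to 1282 to 1761, and of the endothelial markers 0 of 4. PTPRC, the general leukocyte marker, was not among the tested genes.

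No gene showed an interaction past the threshold. With limma and Benjamini-Hochberg adjustment over all 12759 genes, 0 genes (0%) had an adjusted p under 0.05, and 448 (204 positive and 244 negative) had an unadjusted p under 0.05. The lowest adjusted p was 0.0648, for KLHL14, and the next was 0.969. The precision was low. The median standard error (SE) of the interaction was 0.39 on the log2 scale, and its 95% interval, before adjustment, reached a median of 0.92 to either side. An interaction below about that size could not be told from 0 in a typical gene even without adjustment. The adjusted threshold asks for more, since DNAJB9 at -1.50 (SE 0.28) had an adjusted p of 0.9994 (limma). Of the 9015 genes above the floor on all 8 arrays, 2662 (29.5%) had a 95% interval that lay wholly between -1 and 1. The fit had no term for replicate number, so a shift shared by same-numbered arrays cancels in the interaction but widens its SE. Each value below is therefore an estimate that did not pass the test. Many are given with their SE and with their value in each replicate number, but not all.

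The replicate numbers share no array, so each gives its own estimate of the interaction. Among the 9015 genes the sign was the same in both for 57.9%, and the values correlated across genes at 0.22 (Pearson) and 0.21 (Spearman); genes are not independent and share the arrays, so this is a description. The lower and upper quartiles of the interaction were -0.24 and 0.23. There were 67 genes beyond 1 or -1 on the same side in both numbers, 39 positive and 28 negative, and 25 that lay beyond these limits on opposite sides.

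**Figure D1:**
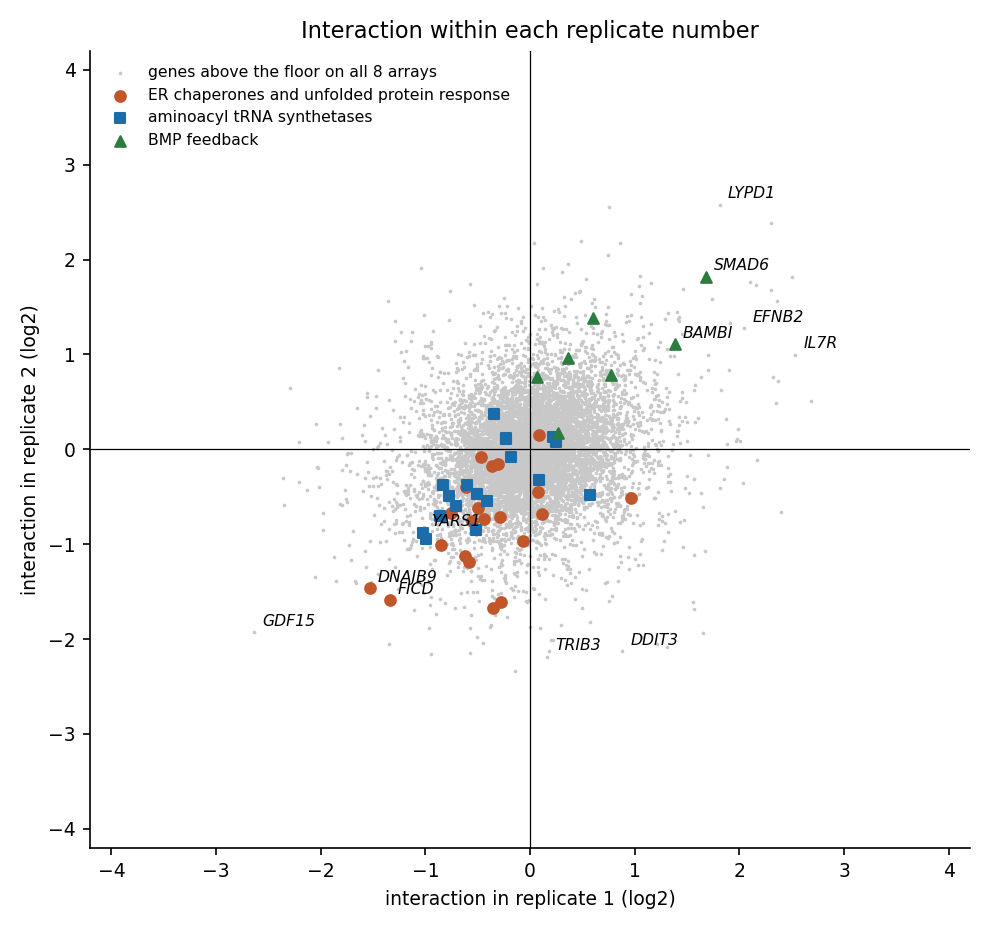
Interaction (log2) of the 9015 genes above the floor on all 8 arrays, in replicate 1 on the horizontal axis and in replicate 2 on the vertical axis; coloured points are members of 3 gene lists and the names mark genes described in the text. Most ER chaperone and UPR genes and tRNA synthetase genes lie at the lower left and BMP feedback genes in the upper right, while DDIT3 and TRIB3 lie in the lower right, with opposite signs in the replicate numbers.

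Genes of the ER chaperone and unfolded protein response list stood lower with both drugs than the single effects would give. Of 25 listed genes 21 were tested, and the interaction was negative for 19 of them and positive for 2, with a median of -0.56 (-0.44 in replicate 1 and -0.71 in replicate 2). Over all genes tested the median was -0.01 and 49.0% were positive. No member was called, against 0% of all genes, and 7 of the 21 had an unadjusted p under 0.05, against 448 of all 12759 genes. The sign was negative in both replicate numbers for 17 members. Over all 12759 genes it was negative in both for 3541 and positive in both for 3369. The median difference from DMSO was 0.40 with JQ1, 0.59 with rapamycin and 0.62 with both drugs, where the single effects summed to a median of 1.147. Because the interaction is built from the same arrays as the single effects, these medians are not independent of each other.

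DNAJB9, an ER co-chaperone of HSPA5, stood at 203.1 and 245.7 with DMSO, 335.8 and 372.6 with JQ1, 1949.3 and 2223.4 with rapamycin, and 1113.2 and 1220.0 with both drugs. The groups did not overlap, and the arrays with both drugs lay between those with JQ1 and those with rapamycin. The interaction was -1.50 (SE 0.28; -1.53 in replicate 1 and -1.47 in replicate 2), a level 2.83-fold below the product of the single effects. FICD, the enzyme that attaches AMP to HSPA5 and removes it, followed the same order of groups. It stood at 94.5 and 98.9 with DMSO, 133.3 and 169.0 with JQ1, 552.9 and 419.4 with rapamycin, and 307.7 and 237.6 with both drugs, an interaction of -1.47 (SE 0.34; -1.34 and -1.59). SYVN1, the ubiquitin ligase of ER-associated degradation, was at 261.3 and 209.2 with DMSO, 463.7 and 404.1 with JQ1, 574.2 and 518.2 with rapamycin, and 565.8 and 498.1 with both drugs. Its arrays with rapamycin and with both drugs overlapped, all 4 lay above the JQ1 arrays, and the interaction was -0.93 (SE 0.29). XBP1, the transcription factor activated by splicing of its mRNA in the UPR, was at 1127.5 and 1177.1 with DMSO, 861.8 and 1243.1 with JQ1, 3482.2 and 5061.1 with rapamycin, and 2201.8 and 1749.3 with both drugs. Its interaction was -0.94 (SE 0.40), but -0.27 in replicate 1 against -1.61 in replicate 2. HSPA5 itself, the main ER chaperone, had an interaction of -0.59 (SE 0.36), with 1335.0 and 1537.3 on the arrays with both drugs against 1337.6 and 1493.8 with rapamycin. At the other end of the list, CALR, a lectin chaperone, had 0.12 (SE 0.30) and DNAJC3, an inhibitor of eIF2-alpha kinases, 0.22 (SE 0.42).

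The promoters of these genes are shown because many carry the ER stress element, the site through which ATF6 and NF-Y act on ER chaperone genes. The element, CCAAT and CCACG with 9 bases between them, was searched on both strands and found between 250 bases before and 50 after the RefSeq start in 7 of 21 members (33.3%): CALR, CANX, CRELD2, FICD, HSP90B1, HSPA5 and XBP1. It was found in 14 (0.138%) of the 10150 tested genes with a promoter in the RefSeq table of GRCh38.p14 and in 22 (0.0806%) of all 27305 promoters. DNAJB9 has no match in this window. The interactions of the 7 ran from -1.47 for FICD to 0.12 for CALR. Capitals mark the element in FICD (chr12:108515027-108515326, plus strand), HSPA5 (chr9:125241294-125241593, minus strand) and XBP1 (chr22:28800520-28800819, minus strand), each printed in the direction of transcription.
FICD: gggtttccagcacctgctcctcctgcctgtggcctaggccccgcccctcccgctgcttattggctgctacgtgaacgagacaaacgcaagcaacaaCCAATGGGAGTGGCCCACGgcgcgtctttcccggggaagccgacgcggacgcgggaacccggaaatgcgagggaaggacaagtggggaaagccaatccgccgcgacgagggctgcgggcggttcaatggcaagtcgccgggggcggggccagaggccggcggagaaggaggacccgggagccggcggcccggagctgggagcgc
HSPA5: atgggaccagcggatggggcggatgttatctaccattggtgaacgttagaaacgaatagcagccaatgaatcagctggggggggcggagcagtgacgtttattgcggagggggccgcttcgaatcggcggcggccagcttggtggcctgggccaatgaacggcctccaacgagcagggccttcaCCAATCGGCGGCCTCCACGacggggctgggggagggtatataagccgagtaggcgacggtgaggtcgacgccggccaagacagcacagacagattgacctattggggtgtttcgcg
XBP1: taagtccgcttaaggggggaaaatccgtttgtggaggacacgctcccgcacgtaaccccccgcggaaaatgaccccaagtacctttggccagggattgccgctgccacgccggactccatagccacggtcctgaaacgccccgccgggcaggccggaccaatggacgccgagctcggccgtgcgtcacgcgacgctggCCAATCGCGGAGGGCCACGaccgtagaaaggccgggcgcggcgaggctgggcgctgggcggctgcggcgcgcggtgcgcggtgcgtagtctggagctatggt

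**Figure D2:**
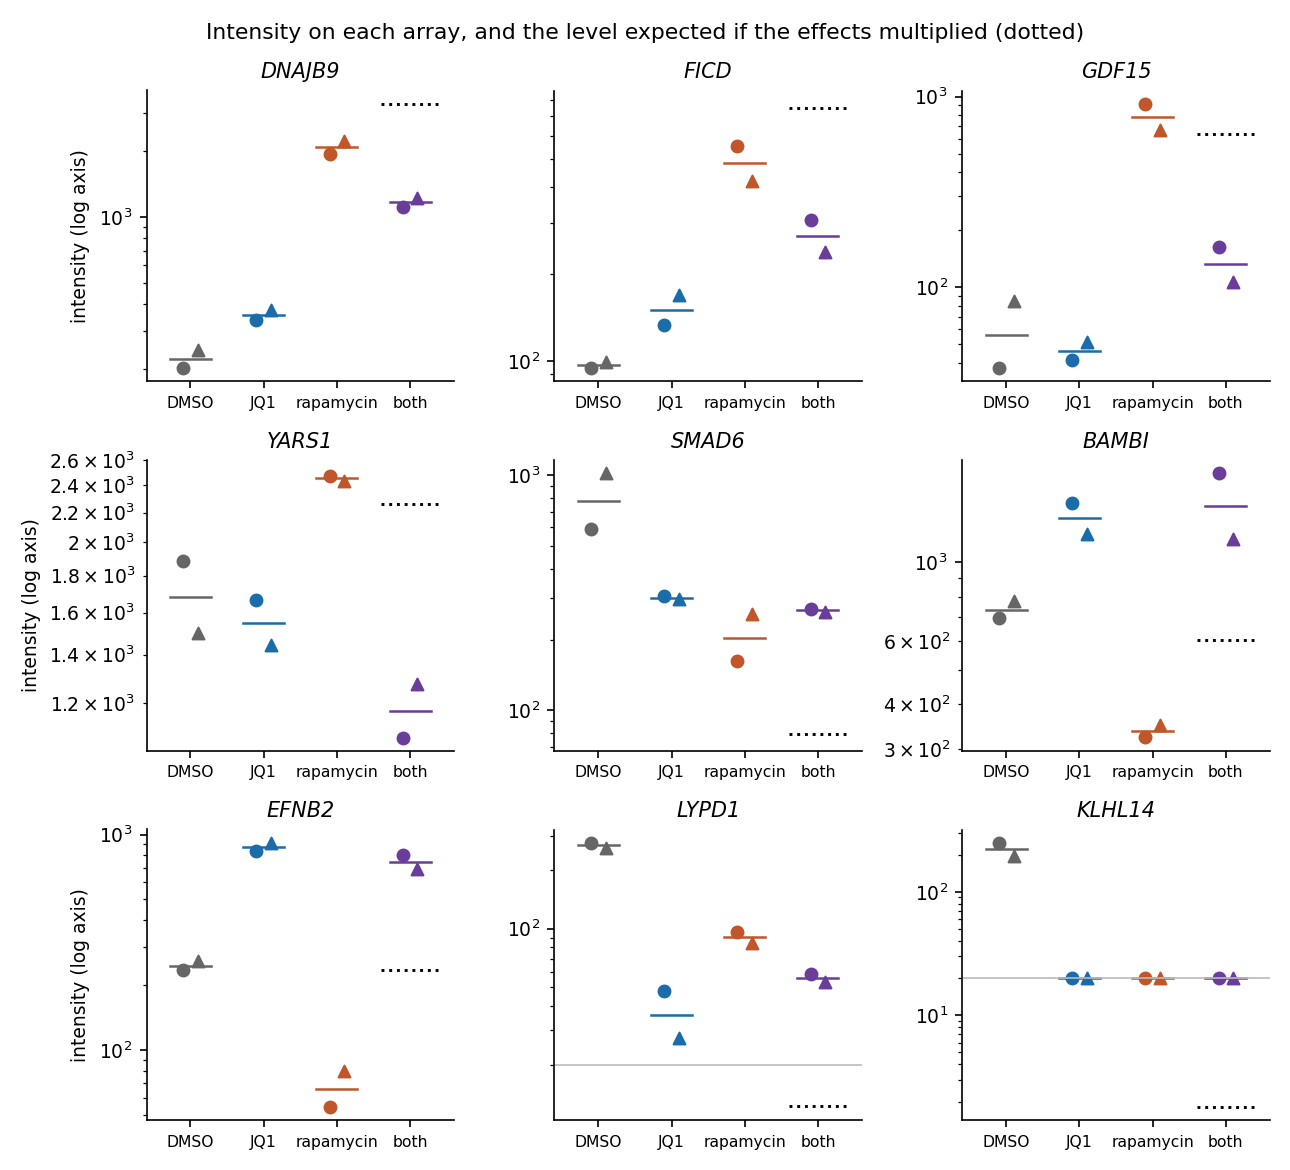
Intensity on a log axis for 9 genes on each array, by group; circles are replicate 1, triangles replicate 2, bars the group mean on the log scale, the dotted line the level that the product of the single effects would give, and the grey line the floor of 20. DNAJB9, FICD, GDF15 and YARS1 lie below the dotted line with both drugs, and SMAD6, BAMBI, EFNB2 and LYPD1 above it; for LYPD1 and KLHL14 the dotted line falls below the floor, where no value can be measured.

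Targets of ATF4 and CHOP, the transcription factors of the integrated stress response, had a negative median as well, but its replicate numbers lay further apart. Of 39 listed genes 34 were tested, 30 negative and 4 positive, with a median of -0.54 (-0.34 in replicate 1 and -0.83 in replicate 2). The sign was the same in both numbers for 19 members (55.9%, against 54.2% of all genes tested), 18 of them negative, and 0 were called. These counts and medians include 4 genes with a whole group at the floor, SESN2 and CHAC1 among them. The list median differed from DMSO by 1.13 with rapamycin, 0.00 with JQ1 and 0.35 with both drugs. Without replicate 2 of both drugs the median was -0.22 and without replicate 1 of DMSO it was -0.35.

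GDF15, a stress-induced cytokine of the TGF-beta family, stood at 37.6 and 84.4 with DMSO, 41.2 and 51.2 with JQ1, 917.8 and 669.7 with rapamycin, and 161.5 and 106.9 with both drugs. The rapamycin arrays were the highest, and the arrays with both drugs lay between them and all 4 arrays without rapamycin. The interaction was -2.28 (SE 0.59; -2.64 and -1.93), a level 4.87-fold below the product of the single effects. SHMT2, a mitochondrial enzyme that takes serine into the folate cycle, was at 3392.0 and 3437.8 with DMSO, 4026.1 and 4185.6 with JQ1, 5739.0 and 5727.3 with rapamycin, and 3654.7 and 4055.7 with both drugs. The arrays with both drugs overlapped those with JQ1 and lay below those with rapamycin, an interaction of -0.84 (SE 0.25; -0.90 and -0.78). MTHFD2, the next enzyme of that pathway, had -0.90 (SE 0.40; -0.80 and -0.997).

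Other ATF4 and CHOP genes split by replicate number, with the second array of both drugs low. DDIT3, which encodes CHOP itself, stood at 120.3 and 92.9 with DMSO, 175.0 and 207.8 with JQ1, 2631.2 and 1524.3 with rapamycin, and 7055.3 and 781.9 with both drugs. The first array with both drugs was the highest of all 8 and the second lay below both rapamycin arrays, so the interaction was 0.88 in replicate 1 and -2.12 in replicate 2 (mean -0.62, SE 1.28). TRIB3, a pseudokinase induced by CHOP, was at 276.9 and 584.7 with DMSO, 56.1 and 97.9 with JQ1, 6057.2 and 2859.6 with rapamycin, and 1367.8 and 105.4 with both drugs. Its interaction was 0.16 in replicate 1 and -2.18 in replicate 2. ATF3, a stress-induced transcription factor, showed 1.06 and -1.98. SESN2, a leucine-sensing inhibitor of mTORC1 signalling, was at the floor with DMSO and with JQ1, at 113.3 and 47.2 with rapamycin, and at 364.8 and 20 with both drugs. CHAC1, which degrades glutathione, was likewise at the floor without rapamycin, at 148.0 and 127.2 with rapamycin, and at 141.1 and 20 with both drugs. With whole groups at the floor, SESN2 and CHAC1 allow neither a value nor a bound for the interaction. Leaving out replicate 2 of both drugs turned the sign for DDIT3 (0.97), TRIB3 (0.84) and ATF3 (0.87). The recorded values of CHAC1 (0.04 without replicate 2 of both drugs) and SESN2 (-1.87 without replicate 1 of both drugs) turned too. Since the floor sets them, their signs are not those of a measured interaction.

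Aminoacyl tRNA synthetases, which load amino acids onto tRNAs and many of which are ATF4 targets, had mostly negative interactions. In the median of the list they differed little from DMSO with either single drug. Of 20 synthetase genes listed, 18 were tested, 14 negative and 4 positive, with a median of -0.48 (-0.46 in replicate 1 and -0.42 in replicate 2); 11 were negative in both numbers and 0 were called. The median difference from DMSO was -0.01 with JQ1, 0.22 with rapamycin and -0.01 with both drugs, but single members such as YARS1 (0.55) differed more with rapamycin. YARS1, the tyrosyl-tRNA synthetase, stood at 1885.3 and 1499.7 with DMSO, 1663.9 and 1441.9 with JQ1, 2473.2 and 2435.9 with rapamycin, and 1075.2 and 1275.2 with both drugs. The arrays with both drugs were the lowest and those with rapamycin the highest, an interaction of -0.95 (SE 0.30; -1.02 and -0.88). MARS1, the methionyl-tRNA synthetase, had -0.97 (SE 0.44; -0.99 and -0.94), EPRS1, the glutamyl-prolyl enzyme, -0.78 (SE 0.26; -0.86 and -0.70), and SARS1, the seryl enzyme, -0.68 (SE 0.27; -0.52 and -0.85). FARSB, a subunit of the phenylalanyl enzyme, had 0.17 (SE 0.25). Without replicate 1 of rapamycin the median of the list was -0.30.

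The element bound by ATF4 with C/EBP partners is shown for 1 synthetase and 1 amino acid enzyme because it occurs in both lists. TGATGNAA, on either strand, was found in 5 of 15 synthetase promoters (33.3%: AARS1, IARS1, MARS1, NARS1 and TARS1) and in 5 of 29 promoters of the ATF4 and CHOP list (17.2%: ASNS, ATF3, CHAC1, SLC3A2 and SLC7A1). It was found in 193 (1.90%) of the 10150 tested genes with a promoter and in 1003 (3.67%) of all 27305 promoters. Capitals mark the element, which lies on the opposite strand in MARS1 (chr12:57487818-57488117, plus strand) and on the printed strand in ASNS (chr7:97872359-97872658, minus strand), asparagine synthetase. In ASNS it overlaps a match to the heat shock element GAANNTTC. The interactions of the 5 synthetases with the element ran from -0.97 for MARS1 to 0.02 for IARS1, and YARS1, EPRS1 and SARS1 are not among them.
MARS1: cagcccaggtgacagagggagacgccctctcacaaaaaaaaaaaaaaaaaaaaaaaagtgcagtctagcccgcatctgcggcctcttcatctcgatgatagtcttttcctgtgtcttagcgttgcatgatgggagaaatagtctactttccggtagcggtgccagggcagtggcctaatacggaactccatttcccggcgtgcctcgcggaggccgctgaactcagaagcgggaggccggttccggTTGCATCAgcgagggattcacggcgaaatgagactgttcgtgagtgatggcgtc
ASNS: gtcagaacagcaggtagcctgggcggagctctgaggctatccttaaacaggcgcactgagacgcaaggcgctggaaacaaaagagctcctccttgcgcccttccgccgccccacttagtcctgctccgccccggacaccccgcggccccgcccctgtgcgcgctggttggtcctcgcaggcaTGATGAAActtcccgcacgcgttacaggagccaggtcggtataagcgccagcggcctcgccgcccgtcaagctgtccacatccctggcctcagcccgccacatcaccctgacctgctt

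**Figure D3:**
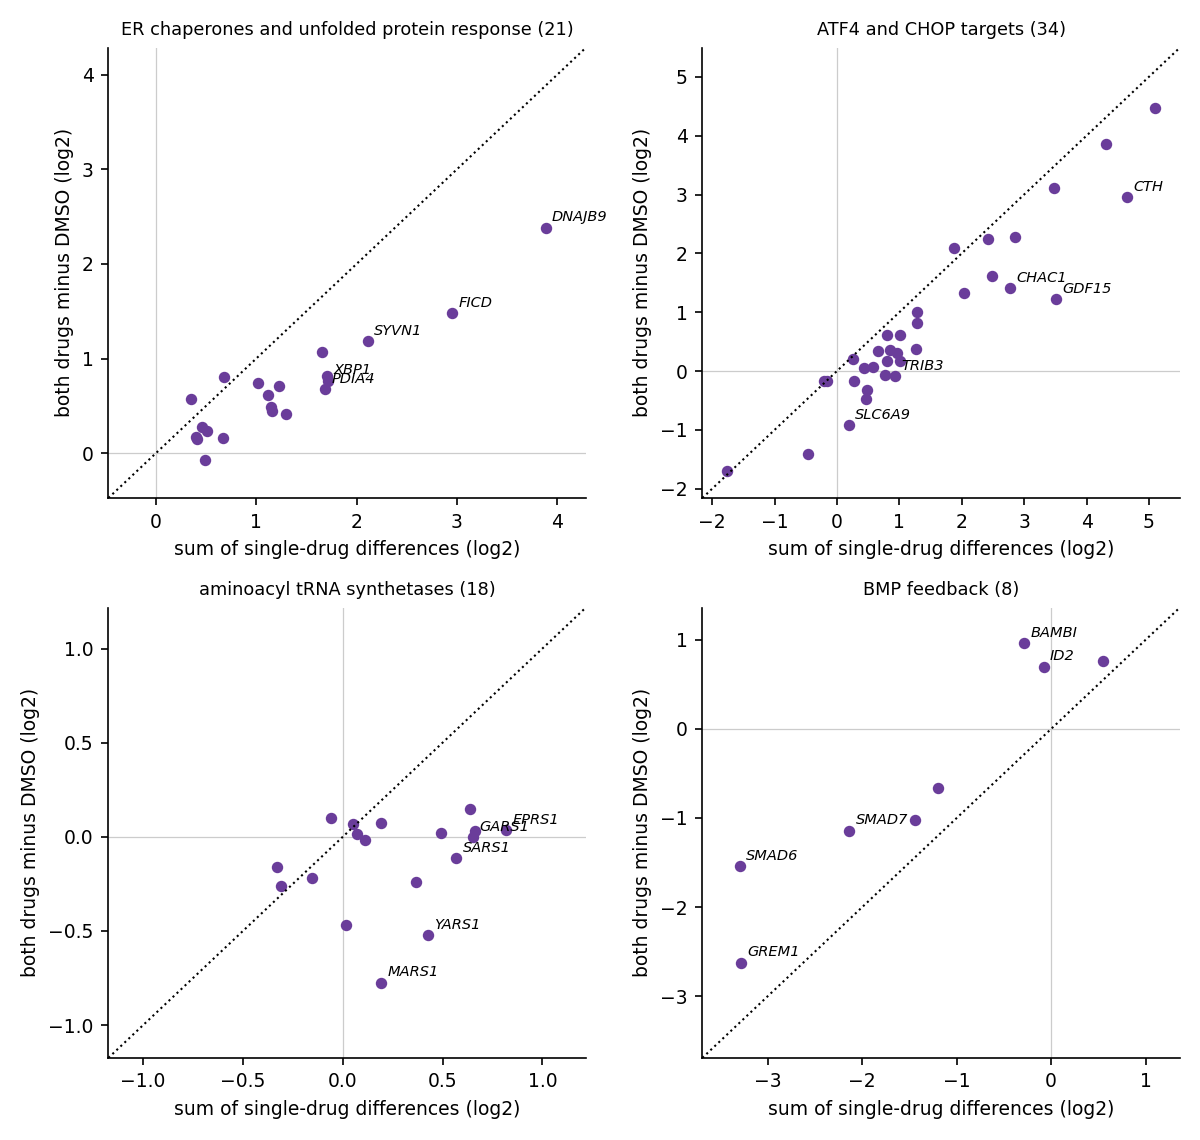
Difference from DMSO with both drugs (vertical, log2) against the sum of the single-drug differences (horizontal, log2) for the tested members of 4 gene lists; points on the dotted line have an interaction of 0. Members of the ER, ATF4 and synthetase lists lie mostly below the line (19 of 21, 30 of 34 and 14 of 18) and all 8 BMP feedback genes above it.

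BMP feedback genes showed the opposite sign. These genes are induced by bone morphogenetic proteins, growth factors of the osteoblast lineage, and several of them restrain the BMP signal. Of 10 listed genes 8 were tested and all 8 had a positive interaction, with a median of 0.72 (0.48 in replicate 1 and 1.01 in replicate 2); 7 were positive in both numbers and 0 were called. One member, NOG, had a whole group at the floor. The median difference from DMSO was -0.32 with JQ1, -1.003 with rapamycin and -0.84 with both drugs. SMAD6, an inhibitory SMAD, stood at 589.4 and 1022.7 with DMSO, 305.7 and 297.5 with JQ1, 162.3 and 256.1 with rapamycin, and 269.6 and 262.9 with both drugs. All 6 treated arrays lay below both DMSO arrays, and the arrays with both drugs lay between the single drugs, an interaction of 1.75 (SE 0.46; 1.68 and 1.82). SMAD7, its relative, had 0.99 (SE 0.55; 0.60 and 1.39) at intensities of 30.6 to 125.3. BAMBI, a decoy receptor, was at 696.3 and 777.1 with DMSO, 1465.9 and 1194.5 with JQ1, 323.0 and 349.7 with rapamycin, and 1770.5 and 1160.0 with both drugs. Its arrays with both drugs overlapped those with JQ1, although rapamycin alone gave the lowest levels, an interaction of 1.24 (SE 0.36; 1.38 and 1.11). The ID genes, helix-loop-helix inhibitors induced by BMP, had 0.22 (ID1, SE 0.35), 0.78 (ID2, SE 0.62) and 0.41 (ID3, SE 0.29), and the antagonist GREM1 had 0.66 (SE 0.40). Without replicate 1 of DMSO the list median was 1.146. None of the 7 BMP feedback promoters in the table holds either element named above.

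The wider osteoblast list, which shares ID1, ID2 and ID3 with the BMP list and ATF4 with the ATF4 list, was measured for 23 of 30 genes, 16 positive and 7 negative. Its median was 0.35 (0.27 and 0.28), 13 members were positive in both numbers, 0 were called, and 6 of the 23 had a whole group at the floor. CDH11, the osteoblast cadherin, had 0.76 (SE 0.41; 0.69 and 0.84), and 0.42 without replicate 1 of rapamycin. TNFSF11, the osteoclast differentiation factor RANKL, had 0.91 (SE 0.47) at intensities of 20 to 38.9, and TWIST1, a repressor of osteoblast differentiation, 0.51 (SE 0.29). RUNX2, the master regulator of the lineage, was at 96.5 and 110.9 with DMSO and 95.7 and 75.5 with rapamycin, and at the floor on all 4 arrays with JQ1 by the probe used, so that this probe gives no bound. A dimmer second RUNX2 probe, above the floor on 6 arrays, had -0.93 (0.05 and -1.90) against 0.28. Without replicate 1 of DMSO the list median was 0.14, and without replicate 2 of JQ1 it was 0.19.

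Among single genes, the 12 most positive and the 12 most negative by moderated t were taken from those above the floor on all arrays with the same sign in both numbers. This ranking picks large values, and the adjusted p was 0.9994 for each of the 24 genes. Of the 12 positive genes, 9 were lower with each drug alone than with DMSO and 3 were higher with JQ1 and lower with rapamycin. Of the 12 negative genes, 10 were higher with each drug alone. The remaining 2, CLIP4 and DDR2, were lower with JQ1 and higher with rapamycin. The shared DMSO arrays enter both the single differences and the interaction, so these counts are partly built in.

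LYPD1, a membrane-anchored protein of the Ly6 family, had the largest positive t. It stood at 276.6 and 259.5 with DMSO, 47.9 and 27.3 with JQ1, 96.1 and 84.8 with rapamycin, and 58.3 and 53.2 with both drugs. All 6 treated arrays lay below both DMSO arrays and the arrays with both drugs lay between the single drugs, an interaction of 2.19 (SE 0.40; 1.81 and 2.58) and of 1.16 for its second probe. IL7R, the interleukin 7 receptor, had the same layout, with 443.7 and 369.7 with DMSO, 23.9 and 29.9 with JQ1, 152.9 and 193.0 with rapamycin, and 47.7 and 31.2 with both drugs. Its interaction was 1.77 (SE 0.39; 2.53 and 0.997), and 1.67 for the second probe. In both genes the product of the single effects would fall below the floor, so that a level that low could not have been recorded. ARID5B, a DNA-binding protein of the ARID family, was at 290.1 and 349.1 with DMSO, 112.1 and 147.1 with JQ1, 239.7 and 293.5 with rapamycin, and 248.3 and 325.9 with both drugs. Only its JQ1 arrays stood apart, and those with both drugs overlapped DMSO, an interaction of 1.41 (SE 0.35; 1.42 and 1.397). TSHZ1, a zinc finger transcription factor, also had its lowest arrays with JQ1, and an interaction of 1.38 (SE 0.34).

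EFNB2, a membrane ligand of Eph receptors, and MYLIP, the ubiquitin ligase that degrades the LDL receptor, lay, like BAMBI, above DMSO with JQ1 and with both drugs and below it with rapamycin. EFNB2 was at 234.8 and 257.4 with DMSO, 841.6 and 916.3 with JQ1, 54.3 and 80.1 with rapamycin, and 802.2 and 691.7 with both drugs. Rapamycin alone gave the lowest arrays, and the arrays with both drugs lay just below those with JQ1, an interaction of 1.66 (SE 0.34; 2.04 and 1.28). MYLIP was at 601.0 and 725.4 with DMSO, 1058.3 and 883.9 with JQ1, 221.7 and 295.4 with rapamycin, and 871.7 and 1212.6 with both drugs. The arrays of JQ1 and of both drugs overlapped, and the interaction was 1.46 (SE 0.37). TFAP2A, the transcription factor AP-2 alpha, had 1.19 (SE 0.29), but 3 of its dimmer probes had -0.27 to -0.22 and 1 had 1.30. The other positive genes were MFSD6L (1.33), ENTPD1 (1.18), LINC01102 (1.16), KCNQ1OT1 (1.09) and POLR2J4 (1.08). MFSD6L, ENTPD1 and POLR2J4 were dim, with no array above 71.4. For MFSD6L and POLR2J4 the product of the single effects would also fall below the floor, so that a level that low could not have been recorded. POLR2J4 is a near copy of other POLR2J genes, so its probe may read several of them, and its 2 dimmer probes had 0.30 and -0.11.

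Among the negative genes beside DNAJB9 and FICD, DDR2, a collagen receptor kinase, stood at 47.6 and 53.6 with DMSO, 52.2 and 42.9 with JQ1, 148.7 and 123.4 with rapamycin, and 49.2 and 49.0 with both drugs. Only the rapamycin arrays stood apart, an interaction of -1.37 (SE 0.29; -1.73 and -1.01). PRRC1 was at 308.6 and 252.3 with DMSO, 416.6 and 402.0 with JQ1, 600.9 and 634.2 with rapamycin, and 332.1 and 427.5 with both drugs. Its arrays with both drugs overlapped those with JQ1, an interaction of -1.26 (SE 0.30; -1.29 and -1.24). GCC1, a Golgi coiled-coil protein, had -1.17 (SE 0.27) and CLIP4 -1.10 (SE 0.28). The others, DHX8 (-1.62), CDYL (-1.55), BORCS6 (-1.50), TTLL1 (-1.46), DZIP1L (-1.30) and HEXA (-1.09), were dim, with no array above 91.6. Over the 9015 genes, 4 had a JQ1 difference of at least 0.5 in both numbers that pointed the other way with rapamycin. DNAJB9 (0.66 without and -0.84 with rapamycin) and DHX8 (0.89 and -0.73) were higher with JQ1 alone and lower on top of rapamycin. FAM110B (-1.53 and 0.82, interaction 2.35, SE 0.65) and SNORD32A (-0.67 and 0.71, interaction 1.38, SE 0.52) ran the other way; these 2 were chosen after their values were seen.

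Genes with a whole group at the floor, 2293 of the 12759 (17.97%), are described apart from the other single genes, although they stay in the counts and medians of their lists. For 71 of them only arrays with a single drug lay at the floor, which makes the measured interaction a lower bound. For 102 only arrays with DMSO or both drugs did, which makes it an upper bound, and for the other 2120 neither bound holds. These bounds concern the floor alone, and each still carries the spread between arrays given by its SE. KLHL14, a Kelch-like protein and the gene with the lowest adjusted p (0.0648, limma), stood at 250 and 195.5 with DMSO and at 20 on the other 6 arrays. Each drug alone took it to the floor, where a further drop with both drugs cannot be recorded, so its value of 3.47 is set by the floor and gives no bound. FETUB, a fetuin, was at 21.4 and 21.3 with DMSO, at the floor with each single drug, and at 37.1 and 43.5 with both drugs. Its interaction was estimated at 1.10 (SE 0.26) or higher. RBM11, an RNA-binding protein, had 1.14 (SE 0.25) or higher, with 32.4 and 33.4 on the arrays with both drugs. RHOH and UCK1 had 1.45 and 1.39, but each also had 1 array with both drugs at the floor, so that these values are no bounds. On the negative side RFX4, a transcription factor of the RFX family, was at the floor with DMSO and at 31.1 and 28.3 with JQ1. It was at 45.9 and 49.6 with rapamycin and 23.7 and 24.1 with both drugs, an interaction of -1.56 (SE 0.25) or lower by this probe. A dimmer second RFX4 probe had -0.46 (-0.21 and -0.71). RSPO2, an enhancer of WNT signalling, was at the floor with DMSO and at 53.5 and 50.1 with JQ1. It was at 30.2 and 30.3 with rapamycin and 25 and 20 with both drugs, an interaction of -1.81 (SE 0.27) or lower. CXCL2, a neutrophil-attracting chemokine, was at 61.0 and 69.1 with rapamycin and at 20 on the other 6 arrays, and CAMTA2 was at 73.3 and 63.9 with rapamycin and at 20 to 20.3 elsewhere. VLDLR-AS1, an antisense transcript of VLDLR, was at 92.7 and 75.2 with rapamycin and at 20 to 30 elsewhere. No bound holds for these 3 genes. VLDLR itself, a lipoprotein receptor on the ATF4 list, had -0.32 (SE 1.08).

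Genes known to respond to BET inhibition had interactions on both sides of 0. Of 16 listed genes 15 were tested, 9 positive and 6 negative, and the sign was the same in both numbers for 8 of them (4 positive, 4 negative). The median was 0.05, but 0.65 in replicate 1 and -0.38 in replicate 2, 0 were called, and 2 had a whole group at the floor. H2BC5, given above, had 0.05 (SE 0.73; 1.06 and -0.96). H1-2, a linker histone, had 0.77 (SE 0.53) and H2BC8 0.86 (SE 0.47). SERPINI1, the protease inhibitor neuroserpin, had -0.48 (SE 0.74), and 0.34 for its second probe. HEXIM1, the inhibitor of the elongation factor P-TEFb that BET inhibitors induce, was at 24.7 and 25.8 with DMSO, 55.5 and 175.6 with JQ1, at the floor with rapamycin, and at 38.6 and 76.9 with both drugs. With the rapamycin arrays at the floor its interaction was -0.52 (SE 0.78) or higher. BRD2, a BET protein, had -0.59 (SE 0.31; -0.31 and -0.86). Histone genes, 31 of 36 tested, had a median of 0.11 (0.65 and 0.00), with a whole group at the floor for 11 of the 31. Without 1 of 4 arrays (replicate 2 of DMSO or replicate 1 of JQ1, rapamycin or both drugs) the median of the BET list turned negative, to -0.14 at the lowest, and it was 0.42 without replicate 2 of JQ1.

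TXNIP, an arrestin-like inhibitor of glucose uptake, stood at 80.1 and 120.4 with DMSO, 291.6 and 3033.2 with JQ1, 529.5 and 1160.3 with rapamycin, and 1527.5 and 8740.4 with both drugs. The replicates of JQ1 and of both drugs differed several-fold, and the interaction of -1.04 had an SE of 1.69 (-0.34 and -1.74). Without replicate 2 of JQ1 it was 0.65 and without replicate 1 of both drugs 0.22. Its relative ARRDC4 was at the floor with DMSO, at 20 and 63.9 with JQ1, and at 42.0 and 161.8 with both drugs, with no bound since single arrays of the single-drug groups were at the floor too. CDKN1A, the cell cycle inhibitor p21, was at 1849.6 and 1738.2 with DMSO, 10544.1 and 12224.8 with JQ1, 4019.1 and 3364.8 with rapamycin, and 13677.3 and 11900.6 with both drugs. Its arrays with JQ1 and with both drugs overlapped, an interaction of -0.87 (SE 0.28; -0.74 and -0.99), while a dim second probe had 1.03 (2.06 and 0.00). FOS, an AP-1 subunit, had -0.88 (SE 0.79), with 1 DMSO array at 20 and the other at 60.1, and -0.087 without the first of these. MYC, a frequent target of BET inhibition in other cancers, had 0.12 (SE 0.92). The drug targets gave -0.21 (SE 0.63) for MTOR and 0.06 (SE 0.31) for FKBP1A, whose dimmer probes had 0.65, 0.22 and -0.004. RPTOR, the mTORC1 scaffold, had 0.66 (SE 0.68) with 3 of its 8 arrays at the floor, and no bound is given.

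**Figure D4:**
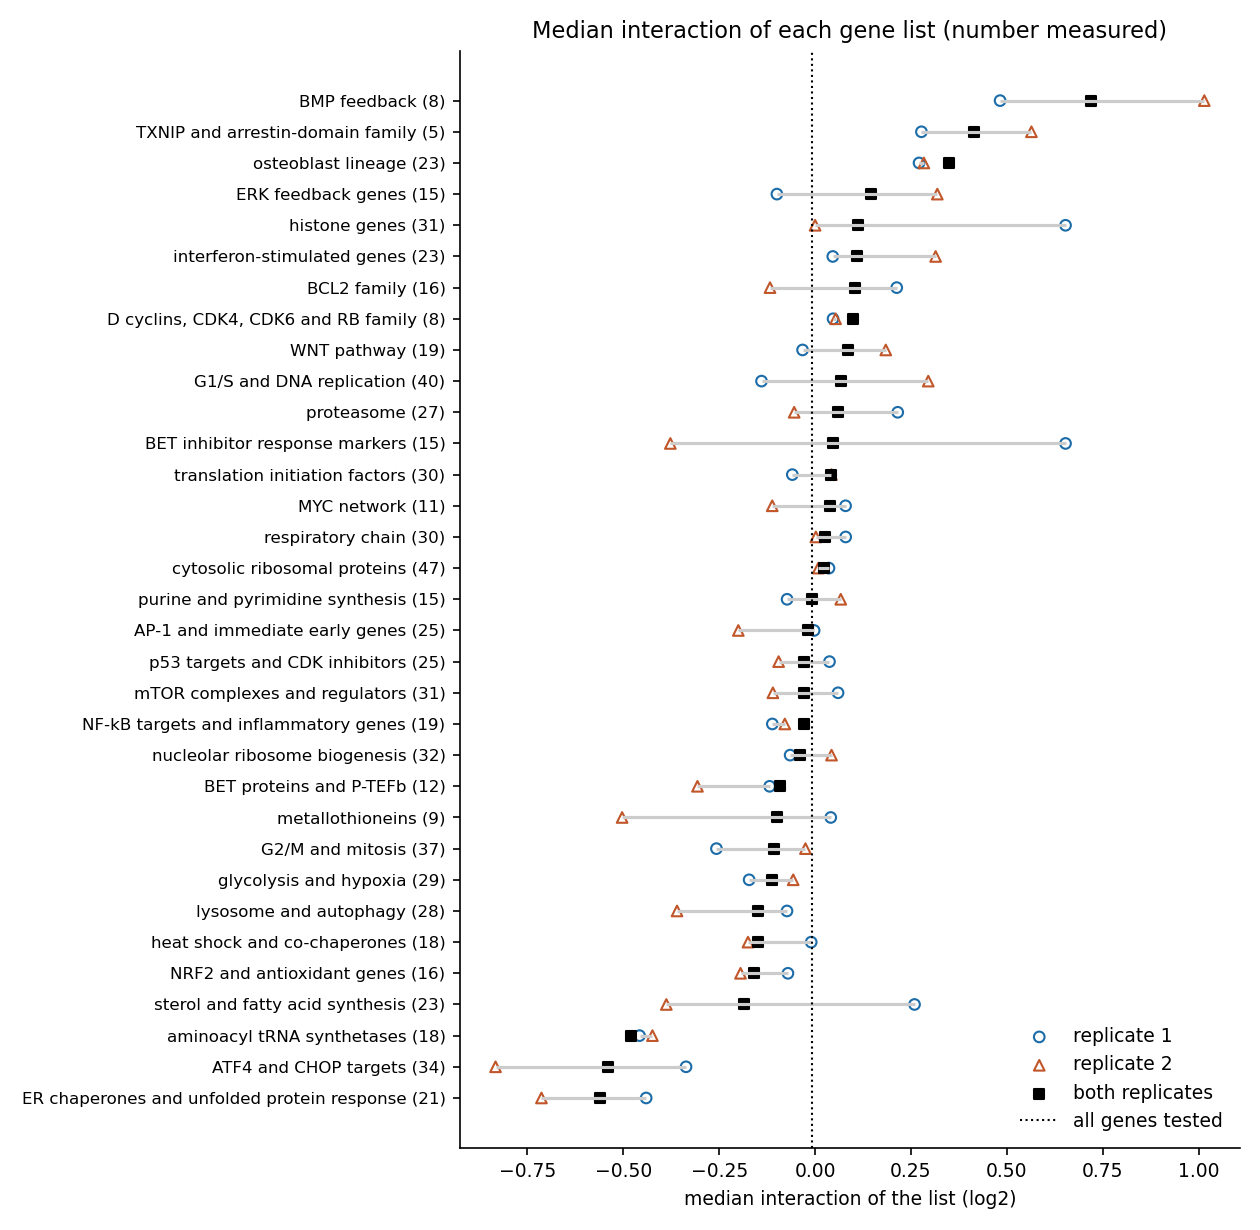
Median interaction (log2, horizontal) of each gene list with its number of tested genes in brackets, over both replicate numbers (squares) and in replicate 1 (circles) and replicate 2 (triangles); the dotted line is the median of all genes tested, -0.01. The ER, ATF4 and synthetase lists lie lowest, from -0.56 to -0.48, and BMP feedback highest, at 0.72.

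Of the other lists 0 members were called. The TXNIP and arrestin-domain family had a median of 0.41 over 5 genes (0.28 and 0.56), 4 of them positive. Large groups of steady cellular genes were close to 0, with 0.02 for 47 cytosolic ribosomal proteins, 0.03 for 30 respiratory chain genes and 0.06 for 27 proteasome genes. The medians were 0.07 for 40 G1/S and DNA replication genes, -0.11 for 37 G2/M and mitosis genes, -0.03 for 31 mTOR complex genes and regulators, -0.03 for 25 p53 targets and -0.02 for 25 AP-1 and immediate early genes. Sterol and fatty acid synthesis genes, 23 tested, had -0.19, but 0.26 in replicate 1 and -0.39 in replicate 2. Heat shock genes, which answer misfolding outside the ER, had -0.15 over 18 genes, with 12 negative and 7 negative in both numbers.

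The interaction was last set against the single-drug effects without sharing arrays. Genes were chosen by a difference of at least 2-fold with 1 drug in one replicate number, and their interaction was read in the other number, among the 9015 genes above the floor. Genes higher with rapamycin had negative medians, -0.40 for 302 genes chosen in replicate 1 (73.8% negative) and -0.23 for 215 genes chosen in replicate 2 (62.3% negative). Genes lower with rapamycin had positive medians, 0.40 for 209 genes chosen in replicate 1 (74.6% positive) and 0.28 for 203 genes chosen in replicate 2 (69.5% positive). Over all 9015 genes the median was -0.01 in replicate 2 and 0.01 in replicate 1, with 50.8% and 49.5% negative. In the median, then, the rapamycin difference of these genes was smaller in the presence of JQ1 than in its absence. The ER, ATF4 and BMP lists, with median rapamycin differences of 0.59, 1.13 and -1.003, had interaction medians of the same signs as the genes chosen here. Whether the lists go beyond that general pattern was not tested. For JQ1 the 2 directions of choice differed. Genes higher with JQ1 had -0.22 (336 genes chosen in replicate 1) and 0.03 (505 chosen in replicate 2), and genes lower with JQ1 had 0.20 (526) and 0.03 (592). These are descriptions with no test since genes on an array are not independent.

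**Figure D5:**
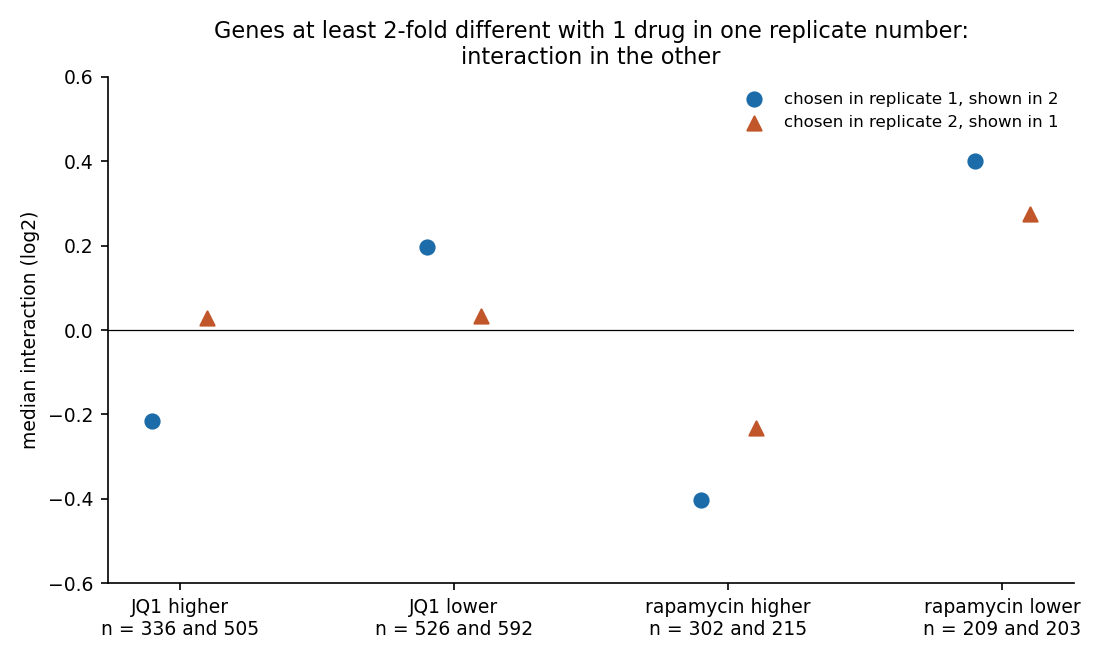
Median interaction (log2, vertical) in one replicate number of the genes that differed at least 2-fold from DMSO with 1 drug in the other replicate number, by drug and direction; circles were chosen in replicate 1 and shown in 2, triangles the reverse, with the numbers of genes in that order. Genes higher with rapamycin lie below 0 and genes lower with rapamycin above 0 in both, while for JQ1 only the circles lie away from 0.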

How the data were processed

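Total RNA from 8 samples of MNNG/HOS cells was labelled with biotin and hybridised to expression arrays; the probe identifiers are Illumina's, although the series' design text names another maker. The authors deposited linear probe intensity in 2 tables, a value table with a floor of 20 and the non-normalized signals. The normalization behind the value table's intensity was not given in the sources used here. Array precision is limited by 2 arrays per group.

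Groups and replicate numbers came from the sample titles. Values were log2-transformed here. A probe was kept if it exceeded 20 on at least 2 arrays (23860 of 47304 probes, 17016 with a gene symbol), and the kept probe with the highest mean stood for its gene, which left 12759 genes, 3326 of them with more than 1 kept probe. The platform annotation gave 1 symbol for 30102 probes, several for 8 and none for 17194; 30063 were updated through RefSeq gene identifiers.

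The interaction was tested with limma 3.58.1 in R 4.3.3, with a mean per group fitted to all 8 arrays (4 residual and 2.92 prior degrees of freedom). p-values were adjusted by Benjamini-Hochberg over all genes, and a gene was called under 0.05. The procedure was tested on simulated data. The simulated noise was independent between arrays, with no floor applied and no shift shared by same-numbered arrays, so these features were not covered. With no called gene, the genes named are the 12 with the largest moderated t each way above the floor on all arrays and with the same sign in both replicate numbers, 5 each way with a whole group at the floor, up to 3 per discussed list, list members quoted as examples, and a set always included. Gene lists were described by counts and medians, without a set test. Promoters came from RefSeq (GRCh38.p14), from 250 bases before to 50 after the start. Alternatives changed the filter, probe summary, scaling, offset, source table, variance model, replicate block and array set. The genes, lists and rules were chosen with earlier results of these data known.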

Additional observations from a re-analysis of the deposited data

How the results depend on the processing

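The count of genes with an interaction was 0 under all alternatives run except 4. It was 18 with no filter on low values (8 positive, 10 negative; 17 of them with a whole group at the floor, KLHL14, CAMTA2, CXCL2 and RFX4 among them), and 1 (KLHL14) with the non-normalized signals under the value table's names, with a replicate block, and at an adjusted p under 0.1. The adjusted p of KLHL14 was 0.0261, 0.0474 and 0.0372 in the first 3 of these, and 0.258 to 0.948 without 1 array. Without each array in turn the count was also 0, but these fits have fewer degrees of freedom, and the lone array of a group is assumed to vary like the other groups. A scaling moved the median interaction of all genes by at most 0.03.

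The replicate numbers are shared across groups by title only, and deviations of same-numbered arrays from their group means correlated at 0.42 to 0.55 between groups. A shared shift of this kind cancels in the interaction but stays in the SEs of the main fit, which has no replicate term. With the replicate number as a replicate block, 1 gene was called and 930 had an unadjusted p under 0.05, against 0 and 448 without it; 638 would on average if no gene had an interaction.

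With the non-normalized signals named as in their own header, the list medians that moved or turned were -0.091 (ER chaperones), -0.061 (synthetases), 0.10 (BMP feedback), 0.10 (osteoblast) and -0.23 (BET markers). The median of the ATF4 and CHOP list was not among these. The medians of genes at least 2-fold different with 1 drug, both directions of choice averaged, went from -0.09 to -0.49 (JQ1 higher), 0.12 to 0.32 (JQ1 lower), -0.32 to -0.10 (rapamycin higher) and 0.34 to 0.066 (rapamycin lower). These genes had the opposite sign under the header's names: ARID5B (-0.04), BAMBI (-0.13), CDKN1A (0.014), CLIP4 (0.0502), CXCL2 (0.28), ENTPD1 (-0.19), FETUB (-0.15), FKBP1A (-0.0101), H1-2 (-0.83), H2BC8 (-0.42), HEXA (0.055), IL7R (-0.13), KCNQ1OT1 (-0.12), LINC01102 (-0.34), LYPD1 (-0.0022), MFSD6L (-0.20), MYC (-0.82), PRRC1 (0.34), RFX4 (0.0032), SERPINI1 (0.39), SESN2 (-2.07), SYVN1 (0.038), TSHZ1 (-0.072), TTLL1 (0.0056), TWIST1 (-0.12) and YARS1 (0.21). The other 41 named genes kept their sign, but for 31 of them the value came to less than 0.5 of the one reported: DNAJB9 had -0.29, FICD -0.36, GDF15 -0.79, SHMT2 -0.15, EPRS1 -0.035, SMAD6 0.13, EFNB2 0.038, MYLIP 0.19 and KLHL14 0.048. Some values grew instead. DDIT3 went from -0.62 to -2.10, TRIB3 from -1.01 to -2.76 and ATF3 from -0.46 to -1.91. The header's names put other arrays in each group, which by construction makes this another contrast.

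With the same signals under the value table's names, medians were -0.43 (synthetases), 0.23 (osteoblast) and 0.43 (rapamycin lower), 61.6% of genes had the same sign in both numbers, and ATF3 (0.15), FKBP1A (-0.23), H2BC5 (-0.23) and RPTOR (-0.10) turned. Other turns were ATF3 (0.15) and SERPINI1 (0.028) with an offset of 50, CDKN1A (0.082) and RUNX2 (-0.32) with the mean of the probes, and H2BC5 (-0.0354) with quantile normalization. On the linear intensity scale ATF3 (426.8), DDIT3 (1756), SERPINI1 (61.3) and TXNIP (2727) were positive. Centring each array gave -0.52 (synthetases) and 0.31 (osteoblast); the osteoblast median was 0.25 without a filter and 0.18 with the offset. Some dim genes kept their sign but came out smaller than reported above. With the offset, BORCS6 had -0.76, CDYL -0.79, DHX8 -0.66, HEXA -0.44 and ENTPD1 0.52. With the non-normalized signals under the value table's names these were -0.85, -0.73, -0.81, -0.51 and 0.696. The brighter DNAJB9 had -1.37 with the offset and -1.82 with those signals. The size of the interaction in these dim genes thus depended on the offset and the source table. The causes were not tested.

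Leaving out 1 array gave medians of -0.49 to -0.30 (synthetases), 0.49 to 1.146 (BMP feedback), 0.14 to 0.48 (osteoblast) and -0.14 to 0.42 (BET markers). It turned the sign of ATF3 (-1.79 to 0.87), CHAC1 (-2.78 to 0.0401), DDIT3 (-2.21 to 0.97), FKBP1A (-0.14 to 0.25), H2BC5 (-0.69 to 0.79), HEXIM1 (-1.35 to 0.31), MTOR (-0.70 to 0.29), MYC (-0.91 to 1.14), RPTOR (-0.0067 to 1.33), SERPINI1 (-1.13 to 0.17), SESN2 (-1.87 to 2.32), TRIB3 (-2.86 to 0.84) and TXNIP (-2.73 to 0.65). Without a change of sign it moved ARRDC4 (0.22 to 2.17), CDH11 (0.42 to 1.11), FOS (-1.68 to -0.087), H1-2 (0.37 to 1.17), H2BC8 (0.43 to 1.29), MTHFD2 (-1.29 to -0.50), RUNX2 (0.11 to 0.45), SMAD7 (0.52 to 1.47), TNFSF11 (0.48 to 1.33) and TWIST1 (0.33 to 0.69) by over 1.5 times. An omission also unbalances the replicate numbers, so that a shift shared by same-numbered arrays enters the value. Of the genes that turned, some had the same sign in both numbers with all arrays kept. These were CHAC1 (-0.07 and -2.67), HEXIM1 (-0.22 and -0.83), MTOR (-0.30 and -0.11), RPTOR (0.35 and 0.97) and TXNIP (-0.34 and -1.74). For CHAC1, RPTOR and SESN2, which allow no bound because of the floor, a sign or its turn describes the recorded values only. The arrays at issue for sign changes were replicate 2 of JQ1 for HEXIM1, replicate 2 of DMSO for RPTOR and, for FKBP1A, replicate 1 of JQ1 or of rapamycin. With 2 arrays per group, precision is limited by their number, and values near 20 by the floor.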
